A study of Mus musculus with 6 samples.

Results

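Interferon regulatory factors (IRFs) are transcription factors that bind short GAAA-rich DNA elements through a conserved tryptophan-rich domain. Irf3 and Irf7 act downstream of nucleic acid sensors and switch on the genes of type I interferon, Irf9 acts with Stat2 downstream of the interferon receptor, Irf1 is induced by interferon gamma and Irf2 competes with it for the same elements. Irf4, Irf5 and Irf8 are known best from lymphocytes, macrophages and dendritic cells. In the gut these factors take part in antiviral defence, antigen presentation and the formation of immune cells.

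The 8 genes Irf1, Irf2, Irf3, Irf4, Irf5, Irf7, Irf8 and Irf9 were chosen by name from 19949 genes listed in at least 1 library, and all 8 were tested. They were followed in colon tissue of STAT6-/- mice and of WT mice, with 3 libraries for each genotype. All mice were of the labelled strain BALB/c, were 6 to 8 weeks old and drank 3% dextran sulfate sodium (DSS), which injures the colonic epithelium, for 3 days. DSS was thus given to both genotypes, and mice without it were not analysed here. STAT6 is the transcription factor of interleukin-4 and interleukin-13 signalling. The labels do not state that each library comes from its own animal, and p-values then measure the spread between these libraries only, which may be technical.

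Stat6 stood at 49.9, 38.5 and 53.2 CPM (counts per 1000000 counts of a library, with TMM scaling) in the STAT6-/- libraries and at 91.7, 104 and 88.8 CPM in the WT libraries. The genotypes did not overlap, and Stat6 fell by 1.01 ± 0.16 on the log2 scale (SE; edgeR adjusted p = 0.0134; exact two-sided permutation p = 0.1, the smallest that 3 against 3 can give). Leaving out WT replicate 2 or 3 gave an edgeR adjusted p of 0.0725 or 0.0721. The Y-linked gene Ddx3y averaged 55.1 ± 4.33 CPM in STAT6-/- and 0.080 ± 0.0382 CPM in WT, while the X-inactivation RNA Xist averaged 0.683 ± 0.376 CPM in STAT6-/- and 469 ± 103 CPM in WT (SD, n = 3 each). Genotype and sex therefore cannot be told apart in any difference below. The libraries held 17122315 to 19555450 expected counts. All 9 genes of a list of colon epithelial genes had counts in both genotypes, Ang4 with only 2 counts over the STAT6-/- libraries. Their summed levels were 16953 to 24943 CPM in STAT6-/- and 26410 to 33849 CPM in WT. A list of 8 small intestinal genes summed to 189 to 239 CPM in STAT6-/- and 111 to 138 CPM in WT.

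The promoters of Irf1 and Irf8 are shown because both hold the gamma-activated site, the palindrome TTCNNNGAA that dimers of interferon-activated STATs bind. They are read from RefSeq on GRCm38.p6, the assembly of mm10, as the 250 bases before the transcription start, on the plus strand, with matches in capitals.
Irf1, chr11:53769764-53770013: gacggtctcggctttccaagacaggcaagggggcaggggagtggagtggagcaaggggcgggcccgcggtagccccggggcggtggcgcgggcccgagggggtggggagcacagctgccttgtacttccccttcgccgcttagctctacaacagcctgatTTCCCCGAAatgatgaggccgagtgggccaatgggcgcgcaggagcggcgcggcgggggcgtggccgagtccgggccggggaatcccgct
Irf8, chr8:120736108-120736357: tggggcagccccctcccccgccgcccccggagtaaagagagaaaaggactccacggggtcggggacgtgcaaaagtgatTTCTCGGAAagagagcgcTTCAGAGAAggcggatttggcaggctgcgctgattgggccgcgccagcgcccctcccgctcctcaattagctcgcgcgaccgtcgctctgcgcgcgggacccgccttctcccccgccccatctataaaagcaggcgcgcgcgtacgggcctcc

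The Irf1 site lies 90 to 82 bases before the start, and the Irf8 sites lie 171 to 163 and 153 to 145 bases before it. Windows of 300 bases around the start, 250 before and 50 after, were listed for all 8 genes, 11 windows in all. The gamma-activated site occurred in 3 of them, belonging to Irf1, Irf2 and Irf8, and in 8.30% of all 32851 promoter windows. The core of the interferon response element, GAAANNGAAA on either strand, occurred in the Irf2 window alone among the members and in 3.44% of all windows. TTCNNNNGAA, the wider palindrome that STAT6 prefers, occurred in 1 member window, that of Irf9, at TTCCTGGGAA (chr14:55603986-55603995), against 6.95% of all windows. None of these 3 motifs was found in the windows of Irf3, Irf4, Irf5 and Irf7. The Irf7 window, chr7:141266375-141266674, is placed on a start inside the listed span of the gene, which reaches 141266499. The 50 bases after that start were not found whole in an annotated Irf7 transcript, and only 193 bases of the window lie before annotated exons. Absence from a window does not show that a gene lacks the element, as bases further upstream were not searched. A match is a description of the letters and not evidence of binding.

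Of the 8 IRF genes, Irf4, Irf7, Irf8 and Irf9 rose in the STAT6-/- colons and none fell. These 4 are 50% of the members, while 11.4% of the 15066 tested genes rose, 11.5% fell and 22.9% changed in either direction (edgeR's quasi-likelihood F test, with a threshold of 0.05 on the p adjusted by Benjamini and Hochberg). The median log2 fold change was 1.34 over the members and 0.01 over all tested genes. The STAT6-/- values lay wholly above the WT values for 5 members, the 4 that rose and Irf1, against 22.0% of all tested genes. Irf2, Irf3 and Irf5 overlapped between genotypes. None of the 4 calls held with WT replicate 2 or WT replicate 3 left out, where only 21 and 12 of all genes were called higher and 10 and 6 lower. In those 2 fits 5 members each still had an unadjusted p under 0.05, as did 4370 and 4285 genes in all.

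**Figure D1:**
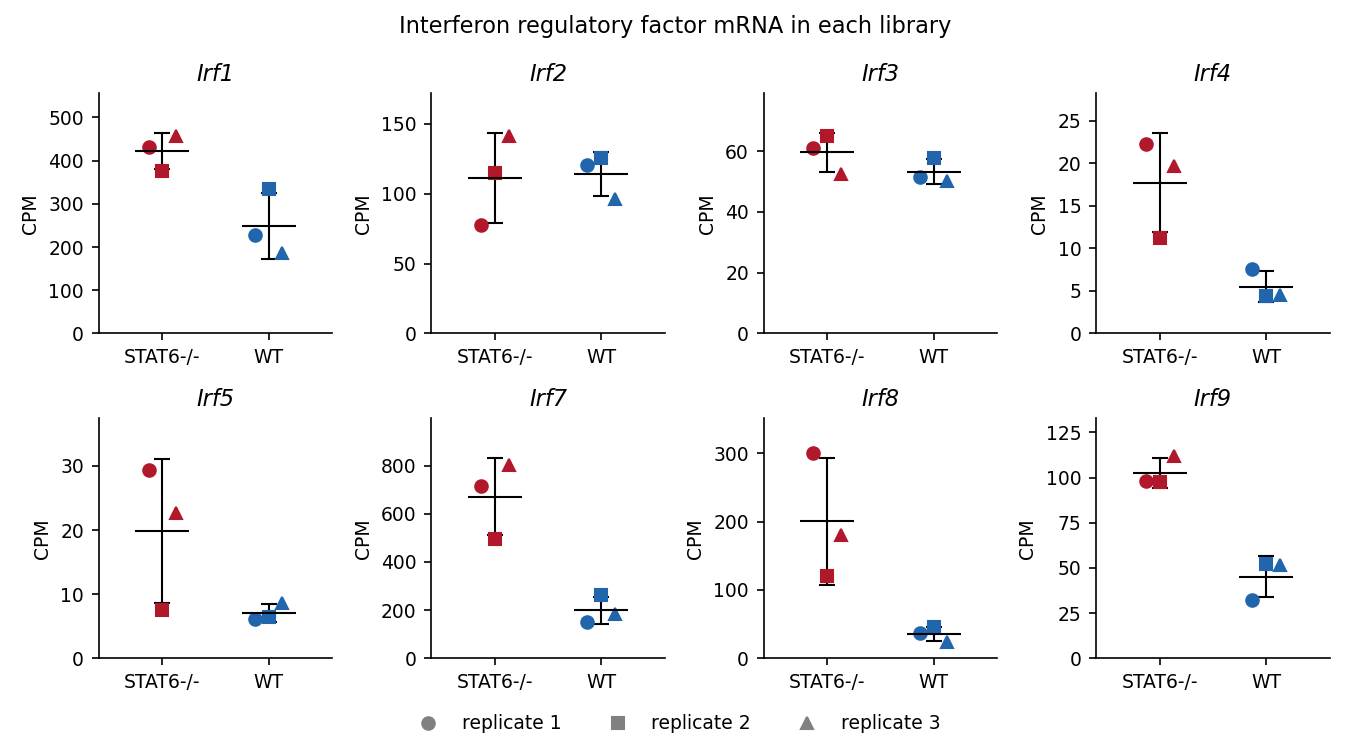
CPM (TMM-scaled) of each IRF gene by library, with STAT6-/- on the left and WT on the right of each panel; symbols mark the replicate number and bars the mean ± SD of 3 libraries. The STAT6-/- points sit above all WT points for Irf1, Irf4, Irf7, Irf8 and Irf9 and overlap them for Irf2, Irf3 and Irf5.

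Irf7, on chromosome 7 (141263183 to 141266499, minus strand, mm10), is the factor that amplifies type I interferon production and is itself induced by interferon. It stood at 717, 494 and 802 CPM in STAT6-/- replicates 1, 2 and 3 and at 149, 261 and 185 CPM in WT replicates 1, 2 and 3. The lowest STAT6-/- library, replicate 2, was still 1.89 times the highest WT library, replicate 2. Irf7 rose 3.38-fold (log2 fold change 1.76 ± 0.29 (SE), edgeR adjusted p = 0.0134), and leaving out WT replicate 2 or 3 gave an adjusted p of 0.0640 or 0.0767.

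Irf3, also on chromosome 7 (44997648 to 45002848, plus strand), is present in resting cells and is activated by phosphorylation instead of new synthesis. It stood at 61.0, 65.0 and 52.6 CPM in STAT6-/- replicates 1, 2 and 3 and at 51.6, 57.8 and 50.0 CPM in WT replicates 1, 2 and 3. The ranges overlapped, and the log2 fold change was 0.16 ± 0.14 (SE; edgeR adjusted p = 0.406). With trends on GC content and length removed the Irf3 value was -0.09. Irf3 shares 1065 bases of its span with Bcl2l12 on the opposite strand, and the sources used here do not say whether strand was used in counting.

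Irf7 and Irf3 were also compared within each library. Irf7 had 11.7, 7.60 and 15.2 times the CPM of Irf3 in STAT6-/- replicates 1, 2 and 3, and 2.89, 4.51 and 3.69 times in WT replicates 1, 2 and 3. All STAT6-/- ratios were above all WT ratios. The log2 ratio was higher by 1.61 in STAT6-/- (exact two-sided permutation p = 0.1, the smallest possible; 0.133 adjusted over the 4 pairs compared).

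Irf9, on chromosome 14 (55603985 to 55610030, plus strand), binds DNA together with its partner Stat2 after interferon signalling. It stood at 98.1, 97.6 and 112 CPM in STAT6-/- replicates 1, 2 and 3 and at 32.1, 52.2 and 51.3 CPM in WT replicates 1, 2 and 3. The 3 STAT6-/- libraries lay close together, with a coefficient of variation of 7.98%, against 25.2% in WT. Irf9 rose 2.27-fold (1.18 ± 0.21, SE; edgeR adjusted p = 0.0153), and leaving out WT replicate 2 or 3 gave an adjusted p of 0.0700 or 0.0748.

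Its partner Stat2 differed by more. Stat2 averaged 253 ± 58.4 CPM in STAT6-/- and 38.4 ± 8.46 CPM in WT, a 6.60-fold rise (SD, n = 3 each; edgeR adjusted p = 0.00732). The ratio of Irf9 to Stat2 CPM was 0.342, 0.524 and 0.390 in STAT6-/- replicates 1, 2 and 3, and 1.02, 1.09 and 1.43 in WT replicates 1, 2 and 3. The ratios did not overlap, and the log2 ratio was 1.28 below 0 in STAT6-/- (-1.28 ± 0.32) and 0.22 ± 0.26 in WT (SD, n = 3 each), a difference of -1.50 (exact two-sided permutation p = 0.1, adjusted over the 4 pairs 0.133). Stat2 passed without WT replicate 2 and did not pass without WT replicate 3.

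Irf1, on chromosome 11 (53770014 to 53778374, plus strand), activates genes of antigen presentation after interferon gamma. It stood at 432, 375 and 457 CPM in STAT6-/- replicates 1, 2 and 3 and at 227, 335 and 186 CPM in WT replicates 1, 2 and 3. The groups did not overlap, although the lowest STAT6-/- library was only 1.12 times WT replicate 2, the highest WT library. The 1.69-fold difference did not pass (0.76 ± 0.25, SE; edgeR adjusted p = 0.0650, unadjusted p = 0.0180). The adjusted p was 0.0442 without STAT6-/- replicate 2, and Irf1 also passed with DESeq2 (0.0153), with library size scaling and with both fits on log2 FPKM.

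Irf2, on chromosome 8 (46739745 to 46847458, plus strand), binds the same elements as Irf1 and antagonises it at many of them. It stood at 77.6, 115 and 141 CPM in STAT6-/- replicates 1, 2 and 3 and at 120, 126 and 96.0 CPM in WT replicates 1, 2 and 3. The genotypes overlapped, with both the lowest and the highest value in STAT6-/-. Its log2 fold change was -0.04 ± 0.24 (SE; edgeR adjusted p = 0.924) and its sign turned with the setting. The ratio of Irf1 to Irf2 CPM was 5.57, 3.27 and 3.23 in STAT6-/- replicates 1, 2 and 3 and 1.88, 2.66 and 1.93 in WT replicates 1, 2 and 3. These ratios did not overlap, and the log2 ratio was higher by 0.87 in STAT6-/- (exact two-sided permutation p = 0.1, adjusted over the 4 pairs 0.133).

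Irf8, on chromosome 8 (120736358 to 120756694, plus strand), directs the formation of monocytes, dendritic cells and B cells and is induced by interferon gamma. It stood at 301, 120 and 180 CPM in STAT6-/- replicates 1, 2 and 3 and at 37.1, 45.1 and 23.9 CPM in WT replicates 1, 2 and 3. Every STAT6-/- library was above every WT library, by at least 2.65 times, and STAT6-/- replicate 1 stood well above the other two. Irf8 rose 5.67-fold, the largest fold of the 8 members (2.50 ± 0.39, SE; edgeR adjusted p = 0.0129). Leaving out WT replicate 2 or 3 gave it an adjusted p of 0.0646 or 0.0728. All 20337 bases of the Irf8 span are shared with Gm20388, annotated as protein-coding on the same strand and listed in no library.

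Irf4, on chromosome 13 (30749233 to 30766981, plus strand), drives plasma cell differentiation and is a close relative of Irf8. It stood at 22.3, 11.2 and 19.7 CPM in STAT6-/- replicates 1, 2 and 3 and at 7.63, 4.41 and 4.48 CPM in WT replicates 1, 2 and 3. The groups did not overlap, and STAT6-/- replicate 2 lay nearest to WT. Irf4 rose 3.21-fold (1.68 ± 0.36, SE; edgeR adjusted p = 0.0216), and leaving out STAT6-/- replicate 1, WT replicate 2 or WT replicate 3 gave an adjusted p of 0.0544, 0.0979 or 0.0991. The ratio of Irf8 to Irf4 CPM was 13.5, 10.7 and 9.15 in STAT6-/- replicates 1, 2 and 3 and 4.87, 10.2 and 5.33 in WT replicates 1, 2 and 3. These ratios overlapped, with a log2 difference of 0.77 (exact two-sided permutation p = 0.2, adjusted over the 4 pairs 0.2).

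Irf5, on chromosome 6 (29526130 to 29541869, plus strand), acts below Toll-like receptors and drives inflammatory cytokine genes in macrophages. It stood at 29.4, 7.47 and 22.7 CPM in STAT6-/- replicates 1, 2 and 3 and at 6.09, 6.39 and 8.62 CPM in WT replicates 1, 2 and 3. STAT6-/- replicate 2 lay within the WT range and the other STAT6-/- libraries above it. The 2.82-fold difference did not pass (1.50 ± 0.48, SE; edgeR adjusted p = 0.0628), and passed without STAT6-/- replicate 2 (adjusted p = 0.00470) and with DESeq2 (0.0102). Irf5 shares 1043 bases of its span with Tnpo3 on the opposite strand. Opposite-strand genes listed in no library also overlap Irf1 (Gm17334, 907 bases) and Irf2 (Gm45479, 1723 bases, and others).

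**Figure D2:**
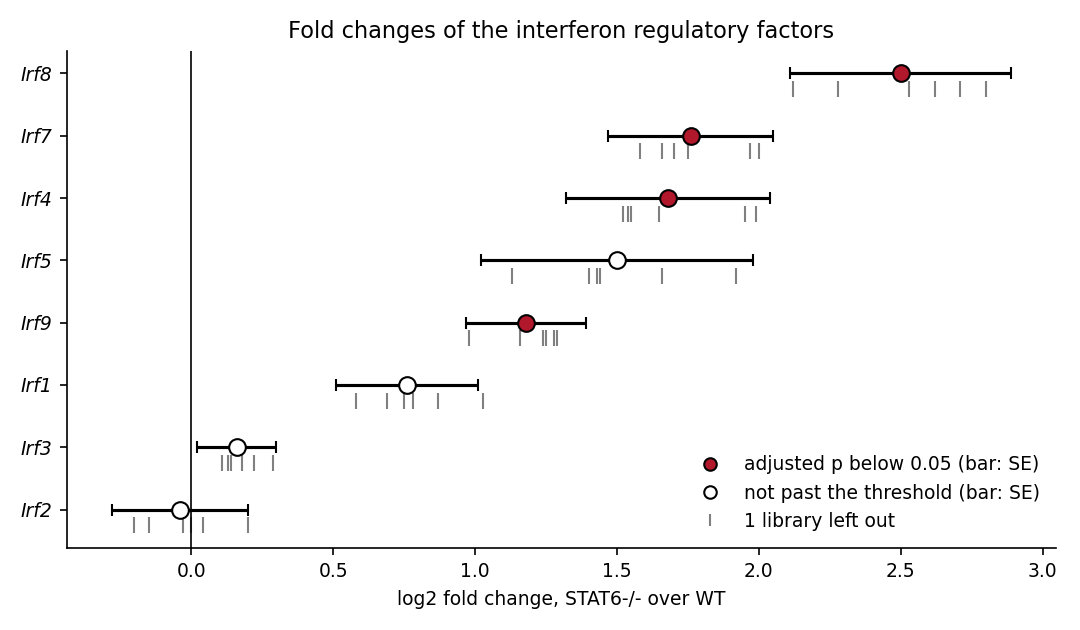
Log2 fold change of each IRF gene, STAT6-/- over WT, on the horizontal axis; circles with bars give the edgeR estimate ± SE, filled where the adjusted p was below 0.05, and grey ticks the 6 estimates with 1 library left out. Irf8 stands furthest right at 2.50, Irf7, Irf4 and Irf5 lie between 1.50 and 1.76, and Irf2 straddles 0.

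The spread between STAT6-/- libraries differed among members. The coefficient of variation over the 3 STAT6-/- libraries was 56.7% for Irf5 and 46.2% for Irf8, against 7.98% for Irf9 and 9.88% for Irf1. STAT6-/- replicate 2 was the lowest STAT6-/- library for Irf1, Irf4, Irf5, Irf7, Irf8 and Irf9. It was the highest for Irf3, and Irf2 was lowest in STAT6-/- replicate 1. Relative to the WT mean, STAT6-/- replicate 2 held 3.38 times the Irf8, 2.49 times the Irf7, 2.16 times the Irf9, 2.03 times the Irf4, 1.51 times the Irf1 and 1.06 times the Irf5.

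Markers of immune cells split the STAT6-/- libraries in the same way. The 8 B cell markers summed to 399, 29.3 and 69.2 CPM in STAT6-/- replicates 1, 2 and 3 and to 38.1 to 59.6 CPM in WT. The 8 dendritic cell markers summed to 73.9, 13.7 and 53.8 CPM in STAT6-/- and 13.0 to 16.4 CPM in WT, and the 10 macrophage and monocyte markers to 1702, 654 and 1406 CPM in STAT6-/- and 506 to 725 CPM in WT. The 8 T cell markers summed to 118, 18.3 and 44.5 CPM in STAT6-/- and 19.8 to 23.0 CPM in WT, and the 6 neutrophil markers to 75.2, 20 and 92.2 CPM in STAT6-/- and 11.3 to 40.3 CPM in WT. STAT6-/- replicate 2 was thus at or below the highest WT library on the sum of each of these 5 lists. Single genes of these lists did not all do so. Of the dendritic cell list, Xcr1 (1.88 against a WT maximum of 1.64 CPM), Clec9a, Itgax and Flt3 were above every WT library. Cd79a of B cells (12.3 against 9.23 CPM), Cd3e, Cd4 and Cd2 of T cells and Retnlg of neutrophils were too. All other genes of the B cell, T cell, dendritic cell and neutrophil lists were below their WT maximum. Of the macrophage list, Cd14 (237 against a WT maximum of 73.0 CPM), Ly6c2 (45.6 against 32.6 CPM) and Mertk (25.3 against 23.5 CPM) were above every WT library. Csf1r, Adgre1, Cd68, C1qa, C1qb, C1qc and Lyz2 were below their WT maximum. Lyz2 weighs most in the sum, at 143 CPM in this library against a WT maximum of 363 CPM. No marker of these 5 lists was at 0 in either genotype.

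In that same library Irf8 stood at 120 CPM against a WT maximum of 45.1 CPM, Irf7 at 494 against 261 CPM, Irf9 at 97.6 against 52.2 CPM and Irf4 at 11.2 against 7.63 CPM. Irf5, at 7.47 CPM, was below the WT maximum of 8.62 CPM. In STAT6-/- replicate 1 the high B cell, T cell and dendritic cell sums went with the highest Irf8, Irf4 and Irf5 values of the series, and the part of those cells in these values was not tested. In tissue RNA, more cells of a type and more RNA per cell cannot be told apart.

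Other cell types were measured in the same way. The 6 plasma cell markers summed to 1297, 1736 and 1930 CPM in STAT6-/- and 1515, 887 and 680 CPM in WT, overlapping between genotypes, with STAT6-/- replicate 1 the lowest of its group. The order of these sums over STAT6-/- libraries was not that of Irf4, but Jchain made up most of them, at 1071, 1471 and 1550 CPM. Derl3 (15.2, 9.97 and 8.57 CPM) and Fkbp11 (7.98, 7.52 and 2.86 CPM) were highest in STAT6-/- replicate 1, as Irf4 was. Sdc1, Mzb1 and Tnfrsf17 were not, and the part of plasma cells in the Irf4 values was not tested. The 9 epithelial markers overlapped at 17056 to 28289 CPM in STAT6-/- and 16100 to 21177 CPM in WT, as did the 5 endothelial markers at 46.4 to 120 CPM in STAT6-/- and 36.9 to 73.2 CPM in WT. The 7 fibroblast and smooth muscle markers were lower, at 2409 to 4845 CPM in STAT6-/- and 6765 to 9195 CPM in WT, without overlap. Of the tested markers, 0 of 8 B cell, 2 of 6 plasma cell, 2 of 8 T cell, 2 of 10 macrophage, 3 of 8 dendritic cell, 1 of 5 neutrophil, 2 of 9 epithelial and 0 of 5 endothelial genes rose and none fell. The shares over all tested genes were 11.4% that rose and 11.5% that fell. Of the B cell markers 2 had an unadjusted p under 0.05 by edgeR, and of the endothelial markers 4, against 40.3% of all tested genes. Among fibroblast and smooth muscle markers 3 of 7 fell, among colon genes 3 of 9 fell, and among 4 tested small intestinal genes 2 rose. Without STAT6-/- replicate 2 the numbers that rose were 4 B cell, 6 T cell, 8 macrophage, 5 dendritic cell, 3 neutrophil and 4 endothelial genes, and with WT replicate 2 or 3 left out they were 0 for these lists. The T cell, dendritic cell and neutrophil calls also went to 0 with STAT6-/- replicate 1, STAT6-/- replicate 3 or WT replicate 1 left out and with limma-voom, and those of T cells and dendritic cells with a replicate block. Of the fibroblast and smooth muscle markers 4 fell with STAT6-/- replicate 3 left out and 0 with any other single library left out. Of the 3 colon calls 2, 1 and 0 held with WT replicate 1, 2 and 3 left out.

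Named among the markers that rose were Derl3 (5.30-fold) and Mzb1 (3.13-fold) of plasma cells, Cd2 (5.14-fold) and Cd3e (5.27-fold) of T cells and Cd14 (4.35-fold) and Ly6c2 (3.62-fold) of macrophages and monocytes. The Cd2 and Cd3e folds were 2.71 and 3.07 with STAT6-/- replicate 1 left out (edgeR adjusted p = 0.105 and 0.116), and Mzb1 was 4.78-fold higher with WT replicate 1 left out. The dendritic cell genes Itgax, Clec9a and Flt3 rose 4.12-fold, 3.59-fold and 5.37-fold, and the neutrophil gene Retnlg 9.05-fold. Vil1 and Krt20 of the epithelium rose 2.28-fold and 2.79-fold, and Slc5a1 and Alpi of the small intestine 1.56-fold and 5.20-fold. None of these epithelial and small intestinal calls held with any WT library left out. Retnlg, Flt3 and Alpi had only 17, 34 and 21 counts over the WT libraries, so the size of their folds is uncertain. With a filter of 1 CPM in 3 libraries, 0 neutrophil, 2 dendritic cell and 1 small intestinal genes rose. Other markers went the other way without passing. Lgals4 of the epithelium stood at 2383 to 4432 CPM in STAT6-/- and 6249 to 7788 CPM in WT (edgeR adjusted p = 0.0692). Siglech of dendritic cells stood at 1.10 to 1.87 CPM in STAT6-/- and 2.37 to 3.78 CPM in WT (edgeR adjusted p = 0.0648). Myh11, Acta2 and Des of smooth muscle fell by 1.67, 1.12 and 1.22 on the log2 scale, and Car1, Ang4 and Fxyd4 of the colon fell by 3.40, 4.76 and 4.09. The Ang4 value rests on 2 counts over the STAT6-/- libraries and 55 over the WT libraries, so its size is uncertain. With no filter, or with a filter of 1 CPM in 3 libraries, 2 colon genes fell. The Fxyd4 value was -3.49 with STAT6-/- replicate 1 left out and -5.46 with STAT6-/- replicate 3 left out. Lyz2, the most abundant macrophage marker, had a log2 fold change of 0.50 that was -0.14 without STAT6-/- replicate 1.

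**Figure D3:**
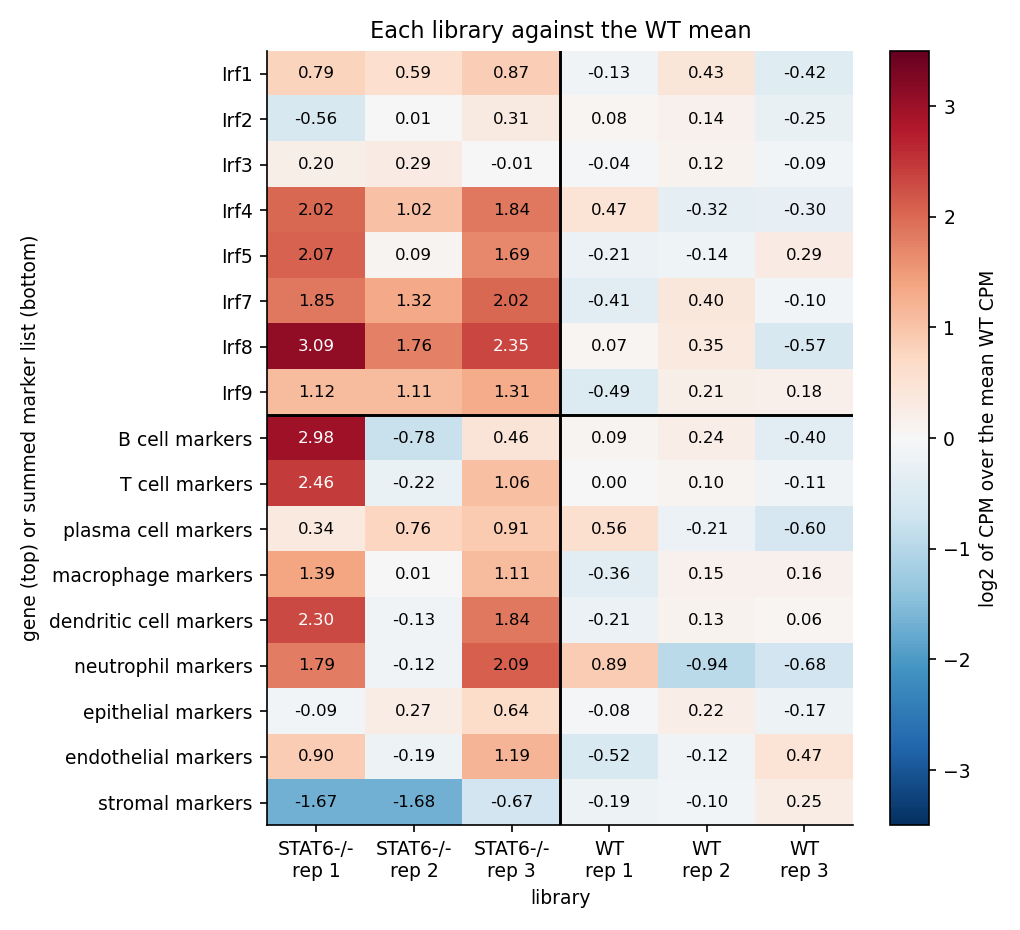
Log2 of the CPM in each library over the mean WT CPM, for the 8 IRF genes (top rows) and for the summed markers of 9 cell types (bottom rows), with STAT6-/- libraries on the left. In STAT6-/- replicate 2 the B cell, T cell, dendritic, neutrophil and endothelial sums are at or below the WT mean, from -0.78 to -0.12, and Irf8 is at 1.76, Irf7 at 1.32 and Irf9 at 1.11.

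Levels of different genes were compared per transcript length, as FPKM summed over the transcripts of a gene. In STAT6-/- the order of mean levels was Irf7 (376 FPKM), Irf1 (200 FPKM), Irf8 (72.4 FPKM), Irf2 (44.9 FPKM), Irf9 (43.2 FPKM), Irf3 (29.4 FPKM), Irf5 (9.37 FPKM) and Irf4 (3.84 FPKM). The ranges of neighbours in that order overlapped for Irf8 and Irf2, for Irf2 and Irf9 and for Irf5 and Irf4. In WT the order was Irf1 (112 FPKM), Irf7 (106 FPKM), Irf2 (44.5 FPKM), Irf3 (24.9 FPKM), Irf9 (18.2 FPKM), Irf8 (11.9 FPKM), Irf5 (3.11 FPKM) and Irf4 (1.14 FPKM), and neighbours overlapped for Irf1 and Irf7 and for Irf9 and Irf8.

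Irf8 was thus the third most abundant member per length in STAT6-/- and the sixth in WT. The 8 genes together summed to 896, 607 and 832 FPKM in STAT6-/- replicates 1, 2 and 3, and to 286, 385 and 292 FPKM in WT. Irf7 made up 44.3% to 51.4% of that sum in STAT6-/- and 28.1% to 35.7% in WT. Irf8 made up 6.83% to 12.8% in STAT6-/- and 2.92% to 4.44% in WT. Neither share overlapped between genotypes, while Irf9 made up 5.66% on average in STAT6-/- and 5.71% in WT.

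**Figure D4:**
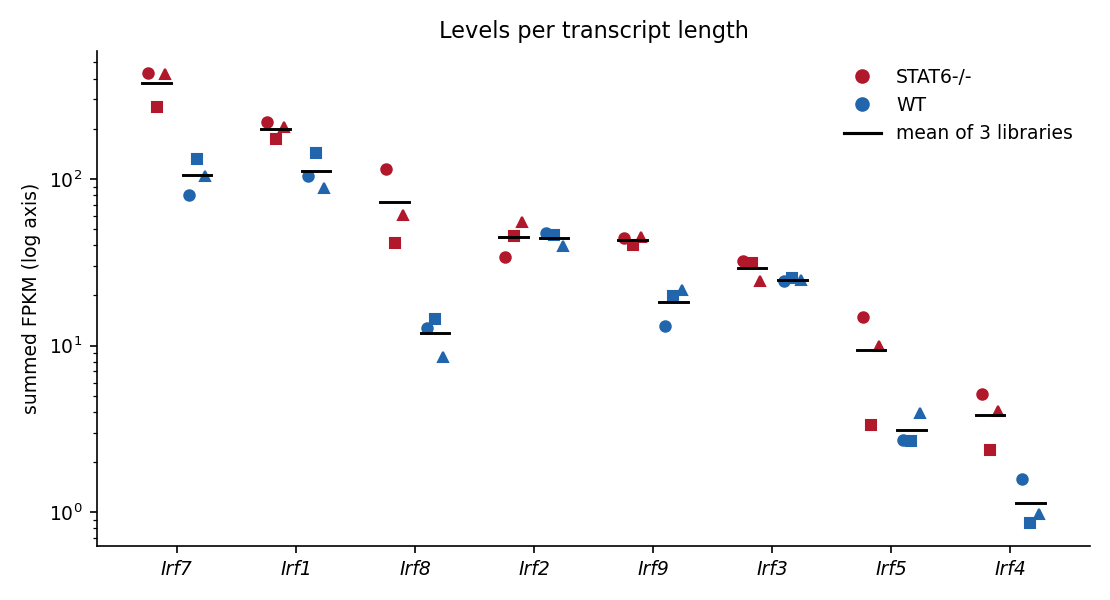
FPKM summed over the transcripts of each IRF gene (log axis) in each STAT6-/- (red, left) and WT (blue, right) library, ordered by the STAT6-/- mean; black lines give the mean of 3 libraries. Irf8 averages 72.4 FPKM in STAT6-/-, above Irf2 and Irf3, and 11.9 FPKM in WT, below both.

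The reads of Irf7 were divided by RSEM, the authors' quantifier, among 3 RefSeq transcripts. NM_016850 took 44.7% to 50.7% of the summed Irf7 FPKM in STAT6-/- and 37.7% to 43.9% in WT, without overlap. NM_001252600 took 12.2% to 17.5% in STAT6-/- and 21.4% to 24.5% in WT, also without overlap. The third, NM_001252601, overlapped at 37.1% to 39.5% in STAT6-/- and 34.6% to 39.6% in WT. Transcripts of 1 gene share most of their sequence, so these shares are estimates and were not tested. The shares of the 3 Irf9 transcripts and of the 3 Irf1 transcripts overlapped between genotypes, and NM_008390 held 91.5% or more of the Irf1 FPKM in every library.

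The genes whose log2 CPM, centred on its own mean, followed each called member most closely over the 6 libraries were found among 13054 tested genes whose mean log2 CPM reached 1. For Irf9 they were Ifi27l2b, Ptger1 and Zswim5, with root mean square differences of 0.0530, 0.122 and 0.164 log2 units. For Irf7 they were Parp12, an interferon-inducible ADP-ribosyltransferase, with 0.0973, Gm38431 with 0.161 and Sp140, a nuclear body protein of leukocytes, with 0.177. Irf8 was followed less closely, by Jak3, a kinase of lymphocyte cytokine receptors, with 0.231, and by Il18bp, which neutralises interleukin-18, and Wars, a tryptophanyl-tRNA synthetase, each with 0.235. For Irf4 they were Rrp12, Lrrc59 and Lrrc8d, with 0.149, 0.153 and 0.163. Closeness over 6 libraries is a description in which the genotype difference itself has a large part.

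Upstream of the IRFs, interferon transcripts were scarce. Of 20 interferon genes, 14 were listed in no library, and none of the other 6 had enough counts to be tested. Ifng, the gene of interferon gamma and the most abundant of them, stood at 2.89 and 0.899 CPM in STAT6-/- replicates 1 and 3 and was not listed in STAT6-/- replicate 2 or in any WT library. None of the 6 receptor chain genes passed (0 at an unadjusted p under 0.05 by edgeR), with a median log2 fold change of 0.05. With STAT6-/- replicate 2 left out, 1 receptor chain gene rose. In that fit 1 interferon gene also passed, but it entered the test only through the STAT6-/- libraries where it was high. Its call is therefore not read as a result. The most abundant receptor chain gene, Ifngr1, averaged 371 ± 56.4 CPM in STAT6-/- and 429 ± 16.5 CPM in WT (SD, n = 3 each; edgeR adjusted p = 0.413). Tyk2, a kinase bound to these receptors, averaged 56.3 ± 4.19 CPM in STAT6-/- and 35.7 ± 2.28 CPM in WT, a 1.58-fold rise (SD, n = 3 each; edgeR adjusted p = 0.0184). With trends on GC content and length removed the Tyk2 log2 fold change of 0.66 became 0.31 (edgeR adjusted p = 0.139), and it did not pass with any WT library left out.

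Among 22 sensors, adaptors and kinases that lead to Irf3, Irf5 and Irf7, 6 rose and none fell, with a median log2 fold change of 0.56. Over all tested genes 11.4% rose and 11.5% fell. This list and those below were chosen with earlier results of these data known, so their counts are descriptive. Ddx58, which encodes the RNA sensor RIG-I, averaged 87.9 ± 25.9 CPM in STAT6-/- and 36.2 ± 5.59 CPM in WT, a 2.43-fold rise. Tlr9, a receptor for unmethylated DNA found mainly in B cells and dendritic cells, averaged 7.23 ± 5.68 CPM in STAT6-/- and 0.537 ± 0.243 CPM in WT, a 13.4-fold rise. It stood at 12.1, 0.992 and 8.62 CPM in STAT6-/- replicates 1, 2 and 3 and had 27 counts over the WT libraries. The Tlr9 call was lost with limma-voom, both fits on log2 FPKM and a replicate block. It was also lost with any single library left out other than STAT6-/- replicate 2. The adaptor genes Ticam1 and Myd88 rose 1.74-fold and 1.87-fold, and the abundant sensor gene Ifih1 had a log2 fold change of 0.63 ± 0.21 (SE; edgeR adjusted p = 0.0651). The edgeR adjusted p of the 4 that rose here ran from 0.0190 for Ddx58 to 0.0312 for Tlr9. Without STAT6-/- replicate 2, 13 of these genes rose, and without STAT6-/- replicate 1 or WT replicate 1 only 2 and 1 did.

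Of 11 DNA-binding partners and coactivators 4 rose and none fell, with a median log2 fold change of 1.47. Batf2, a partner of Irf1 and Irf8, rose 4.04-fold to 81.1 ± 35.8 CPM in STAT6-/-, against 20.1 ± 3.97 CPM in WT. Spi1, the myeloid and B cell factor PU.1 that recruits Irf4 and Irf8 to DNA, rose 5.54-fold, Ikzf3 7.88-fold and Batf3 2.93-fold, while the coactivator gene Ep300 had a log2 fold change of 0.39 ± 0.20 (edgeR adjusted p = 0.0163, 0.0359, 0.0328, 0.0411 and 0.184 in that order). Ikzf3 stood at 34.3, 4.02 and 10.9 CPM in STAT6-/- replicates 1, 2 and 3, and its fold was 3.67 with replicate 1 left out (edgeR adjusted p = 0.0539). Without STAT6-/- replicate 1 or WT replicate 1, 1 and 0 of the partners rose, and without STAT6-/- replicate 2, 7 did. Of 9 genes that restrain IRF action or interferon signalling 3 rose and none fell, with a median log2 fold change of 0.42. Usp18, which removes ISG15 and blocks the interferon receptor, rose by 4.08 on the log2 scale to 121 ± 63.3 CPM in STAT6-/-, against 7.13 ± 4.88 CPM in WT, Socs1 rose 8.28-fold and Tnfaip3 1.50-fold (edgeR adjusted p = 0.0134, 0.0149 and 0.0348). The Usp18 value was 4.77 on the log2 scale with WT replicate 2 left out (adjusted p = 0.0613).

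Target genes differed by list. Of 18 targets with interferon-stimulated response elements 16 rose and none fell, with a median log2 fold change of 2.66. Oas2 and Oas3, which make the activator of RNase L, rose 34.1-fold and 21.2-fold, Ifi44 rose 30.6-fold and the nucleic acid sensor gene Zbp1 5.93-fold (edgeR adjusted p from 0.00965 to 0.00970). Oasl2, the most abundant on average, rose 6.11-fold to 432 ± 110 CPM in STAT6-/-, against 70.7 ± 33.0 CPM in WT (edgeR adjusted p = 0.0138). Oas genes are close relatives, so the division of reads among them is uncertain.

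Of 16 targets of Irf1 10 rose and 1 fell, with a median log2 fold change of 1.95, although Irf1 itself did not pass. Tap2, a peptide transporter of antigen presentation, rose 4.29-fold, Ido1, which degrades tryptophan, 26.8-fold, Nos2, the inducible nitric oxide synthase, 200-fold and Il18bp 6.72-fold (edgeR adjusted p from 0.00732 to 0.00965), and B2m had a log2 fold change of 0.75 ± 0.32 (adjusted p = 0.129). The Nos2 fold rests on 142 counts over the WT libraries, at 5.26, 2.42 and 0.794 CPM in WT replicates 1, 2 and 3, and was 351 with WT replicate 1 left out. Il15, named after its values were seen as the gene that fell, averaged 5.51 ± 2.36 CPM in STAT6-/- and 22.6 ± 2.03 CPM in WT (SD, n = 3 each; edgeR adjusted p = 0.0125). Of 8 tested targets of Irf4 or Irf8 2 rose and 2 fell, with a median log2 fold change of 0.59. Prdm1, the plasma cell repressor that is also made in epithelium, rose 7.58-fold and Xbp1 1.72-fold, while Cst3 averaged 232 ± 29.9 CPM in STAT6-/- and 431 ± 76.2 CPM in WT and Ctss 328 ± 34.3 CPM in STAT6-/- and 518 ± 47.3 CPM in WT (edgeR adjusted p = 0.0299, 0.0196, 0.0261 and 0.0369). The Prdm1 fold was 3.70 with STAT6-/- replicate 3 left out (edgeR adjusted p = 0.0311). Klf4, the most abundant of that list, had a log2 fold change of 0.39 ± 0.19 (adjusted p = 0.168).

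These counts depended on single libraries too. With WT replicate 2 left out, 2 response element targets, 3 Irf1 targets and 0 Irf4 or Irf8 targets rose, and with WT replicate 3 left out none of the 3 lists had a gene past the threshold. Il15 aside, 37 called genes of the pathway lists and the closest patterns were named above. Of these, 33 lost their call without WT replicate 2, where Stat2, Zbp1, Tap2 and Ido1 kept theirs, and 37 lost it without WT replicate 3. Without WT replicate 1, 15 did, and without STAT6-/- replicate 1, 10 did. With trends on GC content and length removed 10 lost it, with a replicate block 9 and with limma-voom 5. All 37 kept their direction in these 7 fits.

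**Figure D5:**
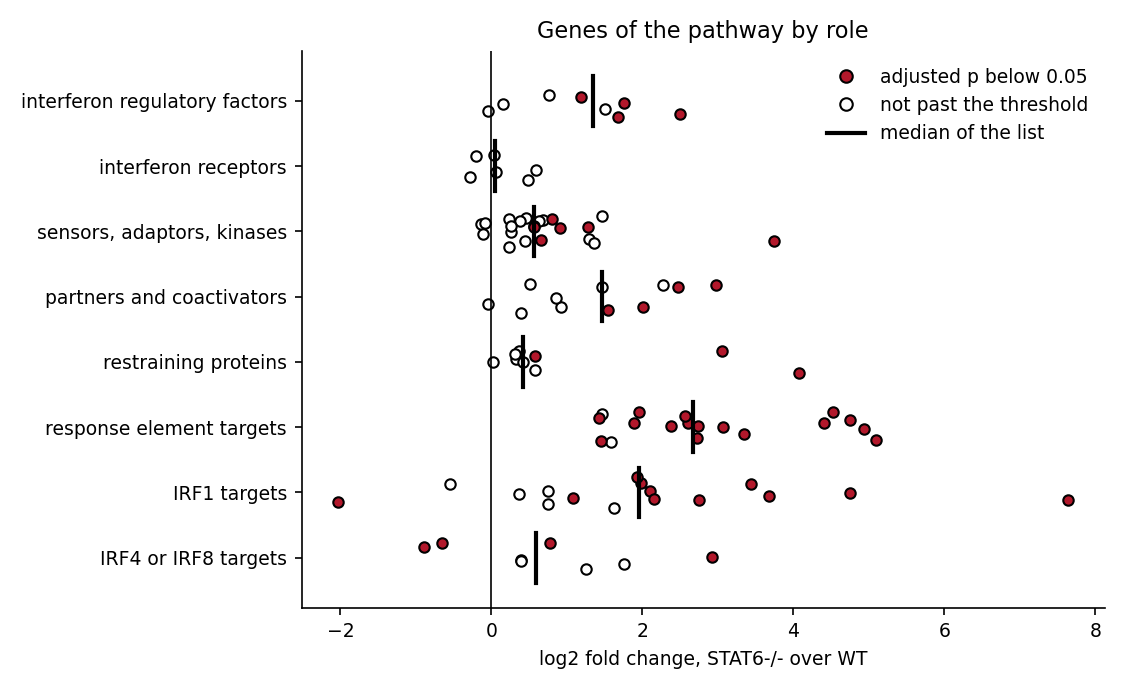
Log2 fold change, STAT6-/- over WT, of each tested gene by role in the pathway; filled circles had an edgeR adjusted p below 0.05, open circles did not, and black bars give the list median. The receptor list centres on 0.05, the IRF genes on 1.34 and the response element targets on 2.66.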

How the data were processed

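Total RNA of colon pieces, scraped on the luminal side per the labels' protocols, was sequenced in 6 libraries. The authors deposited 1 table per library with expected counts (estimated reads per RefSeq transcript, not normalized) and FPKM (reads scaled to transcript length and library size), as the file headers name them. The submitters' processing notes name Bowtie2 2.2.5, RSEM 1.2.12 and mm10. Every listed transcript has an FPKM of 0.01 or more, and a missing one was taken as 0. Of 28238 transcripts, 27986 took a gene from a RefSeq table of GRCm38.p6 and 149 from GENCODE M21, and 103, with 0.167% of the counts, had none and were kept as separate entries.

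Expected counts were summed per gene and rounded. Genotypes were compared by edgeR 4.0.16 (R 4.3.3), with its quasi-likelihood F test, TMM factors, filterByExpr and robust estimation, over 15066 genes with Benjamini-Hochberg adjustment. "Rose" and "fell" mean an adjusted p below 0.05, and an SE is the log2 fold change over the square root of F. Adjusted p-values without another tool's name are edgeR's. The common dispersion was 0.102. Members and lists were chosen with earlier results of these data known. All 8 members are given, and of each pathway list every called gene where 5 or fewer passed, otherwise the 4 with the smallest p, with the most abundant one. The counts of 1 list, of kinases and STATs, are not reported here. Marker lists are given mainly by counts and sums. The library totals limit the precision of counting only. Alternatives were RLE, library size and upper quartile scaling, no filter or 1 CPM in 3 libraries, DESeq2 1.42.0, limma-voom (limma 3.58.1), no robust estimation, limma on log2 FPKM plus 1 or 0.1, a replicate block, leaving out genes that hold over 1% of any library, leaving out each library and, added after the data were seen, trends on GC content and length removed (97.8% of tested genes had both). Figures were drawn with matplotlib 3.10.9.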

Additional observations from a re-analysis of the deposited data

How the results depend on the processing

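Counts of genes moved with the setting. With DESeq2, 2713 genes were higher in STAT6-/-, and with GC and length trends removed, added after seeing the data, 1112 were higher and 959 lower, against 1718 and 1731. With 1 library left out, 12 to 2750 genes were higher and 6 to 2440 lower, and 0 to 6 IRF genes were higher. The cause was not tested. Over 19 alternatives Irf7, Irf8 and Irf9 kept their call in 17 and Irf4 in 16, while Irf1 was called in 5, Irf5 in 2 and Irf2 and Irf3 in 0. The log2 fold changes ran from 1.38 to 2.00 for Irf7, 2.12 to 2.80 for Irf8, 0.98 to 1.29 for Irf9 and 1.15 to 1.99 for Irf4. Irf2 turned to 0.01 with library size scaling and ran from -0.20 to 0.20 with 1 library left out, Lyz2 likewise from -0.14 to 0.95, and Irf3 turned to -0.09 with GC and length trends removed. The 4 log2 ratios kept their direction on the FPKM scale and with any library left out. Same-numbered libraries deviated together only weakly (correlations of 0.0230, 0.0445 and 0.134), against -0.109 to 0.0544 for the other pairs. STAT6-/- replicates 1 and 3 correlated best with the WT library of their own number, and STAT6-/- replicate 2 with WT replicate 1. With a replicate block 1219 genes were higher and 1445 lower, and the same 4 IRF genes passed. Irf4 and Irf5, with 279 and 358 counts over the WT libraries, rest on the fewest reads of the 8.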
